A study of Homo sapiens with 9 samples.

Results

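The 10 genes described here are studied as long noncoding RNAs, long transcripts that act without being translated, although GENCODE release 44 lists TUG1 as protein coding. Most are known as abundant RNAs of that kind in cultured human cells. They are MALAT1, NEAT1, NORAD, TUG1, OIP5-AS1, KCNQ1OT1, CYTOR, MEG3, PVT1 and H19, chosen by name and matched by Ensembl identifier, 10 of the 60609 genes in the count tables. They were measured in U2-OS, an established human osteosarcoma cell line, by RNA sequencing after removal of ribosomal RNA. The study asked how RNA levels differ when NCBP2, the cap-binding subunit of the nuclear cap-binding complex, is overexpressed. Clone A1 and clone A4 both overexpress NCBP2 and gave 3 libraries each, lettered A, B and C. The control is U2-OS cells made in the same way with an empty vector, 3 separate clones with 1 library each: clone 2 is vector replicate A, clone 3 is vector replicate B and clone 1 is vector replicate C. All clones were obtained by the same procedure, no group is parental cells, and the NCBP2 arm rests on 2 clones. The labels do not say whether the 3 libraries of a clone came from separate cultures, so the spread between them may be partly technical. The p-values pool that spread with the spread between the 3 vector clones. For clone A1 or clone A4 alone they do not measure the spread between NCBP2 clones. The molecule field of the labels names polyA RNA, which differs from the ribodepletion in the protocol.

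A long noncoding RNA acts through where it sits and what it binds. MALAT1 and NEAT1 lie next to each other on chromosome 11 and stay in the nucleus, MALAT1 in nuclear speckles, which hold splicing factors, and NEAT1 as the scaffold of paraspeckles. NORAD is cytoplasmic and binds Pumilio proteins such as PUM2, and OIP5-AS1, also called Cyrano, pairs with the microRNA miR-7. KCNQ1OT1, H19 and MEG3 come from imprinted regions, where 1 parental copy is silenced, and PVT1, CYTOR and TUG1 are known from studies of growth and cancer. Like messenger RNAs, these transcripts are made by RNA polymerase II and receive the cap that NCBP2 binds.

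MALAT1 and the long form of NEAT1 end without a poly(A) tail, in a stretch that folds into a triple helix and protects the end from decay. These ends are shown because they set MALAT1 and NEAT1 apart from the other 8 genes. The sequences are from GRCh38, plus strand, at chr11:65506029-65506116 for MALAT1 and chr11:65445453-65445540 for NEAT1, and capitals mark the pair of U-rich stretches and the A-rich end.
MALAT1 3' end: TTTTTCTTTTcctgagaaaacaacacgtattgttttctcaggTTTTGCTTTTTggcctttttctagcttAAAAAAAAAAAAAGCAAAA
NEAT1 3' end: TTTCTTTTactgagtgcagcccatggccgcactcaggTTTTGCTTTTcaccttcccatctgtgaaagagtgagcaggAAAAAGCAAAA
A search pattern written from these ends was found in the longest transcript of 2 of 62700 genes, MALAT1 and NEAT1, so it describes them and was not built to find others. The NEAT1 stretch closes the annotated gene, while the MALAT1 stretch lies 1957 bases inside the annotated end.

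NORAD carries many copies of the Pumilio motif TGTANATA, searched on the transcribed strand. Its 5401 bases (chr20:36045618-36051018, minus strand, 1 exon) hold 15 of them, 10 as TGTATATA, 4 as TGTAAATA and 1 as TGTACATA. Examples are shown in 28 bases of context on the minus strand of GRCh38, at chr20:36047972-36047999, chr20:36049804-36049831 and chr20:36049703-36049730, with the motif in capitals.
NORAD motif 11: aaccctactgTGTATATAgcggacaaac
NORAD motif 2: ctcactactgTGTATATAgttgacaatg
NORAD motif 3: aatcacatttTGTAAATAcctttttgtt
Among the 5072 genes whose longest transcript is at least as long as NORAD, 57.8% had at least 1 such motif and the median was 1. Only 7 of them, 0.138%, had at least 15, NORAD included. In the other members' longest transcripts the count was between 0 (MALAT1, CYTOR, PVT1 and H19) and 9 (KCNQ1OT1, which is 91667 bases long).

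The OIP5-AS1 site for miR-7 is at chr15:41300574-41300599 on the plus strand of GRCh38. Capitals in the site mark bases that pair with the microRNA, 23 of its 24, and capitals in the microRNA mark its seed (bases 2 to 8). The mature microRNA is from RefSeq, GRCh38.p14.
OIP5-AS1 site: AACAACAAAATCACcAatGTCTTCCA
hsa-miR-7-5p: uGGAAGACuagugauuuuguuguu
Mature microRNAs are too short for these libraries' gene counts, and the level of miR-7 was not analysed here.

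Counts in genes numbered 29234022 in clone A1 replicate A, the fewest, and 50554080 in vector replicate B, the most. NCBP2 itself was at 299 to 348 CPM (gene counts per 1000000, with edgeR's scaling factors) in clone A1, 456 to 1035 in clone A4 and 90.6 to 98.3 in the vector clones, which fits the labels. The osteoblast-lineage genes RUNX2 and SPARC were expressed in every library (at least 182 and 1397 CPM), while SP7, BGLAP and IBSP were at or near 0. Clone A1 replicate A stood apart, with the fewest genes detected (21823, against 25390 or more elsewhere). Genes annotated as long noncoding RNA held 2.20% to 3.17% of gene counts. In the column of the gene's strand, 32.4% to 52.4% of uniquely aligned reads were assigned to no gene.

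Not all 10 genes were abundant. Ranked by mean CPM over the 9 libraries among the 16690 genes of the annotated long noncoding class plus TUG1, MALAT1 was 1st, TUG1 2nd and NORAD 3rd. NEAT1 ranked 6, OIP5-AS1 12, PVT1 17, CYTOR 41 and KCNQ1OT1 58. H19 ranked 3553, and MEG3 had no count on its own strand in any library. Levels between genes were compared per kilobase (kb) of merged exons, which lowers genes with long annotated models. On that scale MALAT1 stood at 181 to 677 CPM per kb, above NORAD (90.6 to 136), TUG1 (48.8 to 78.1) and NEAT1 (10.6 to 23.5), with no overlap between those 4. NEAT1 overlapped OIP5-AS1 (6.82 to 16.6), which overlapped PVT1 (5.65 to 9.04), which overlapped CYTOR (3.52 to 6.16). KCNQ1OT1, whose annotated exons add up to 92.6 kb, lay lower at 0.501 to 0.920, and H19 lowest of the detected genes at 0 to 0.294.

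**Figure D1:**
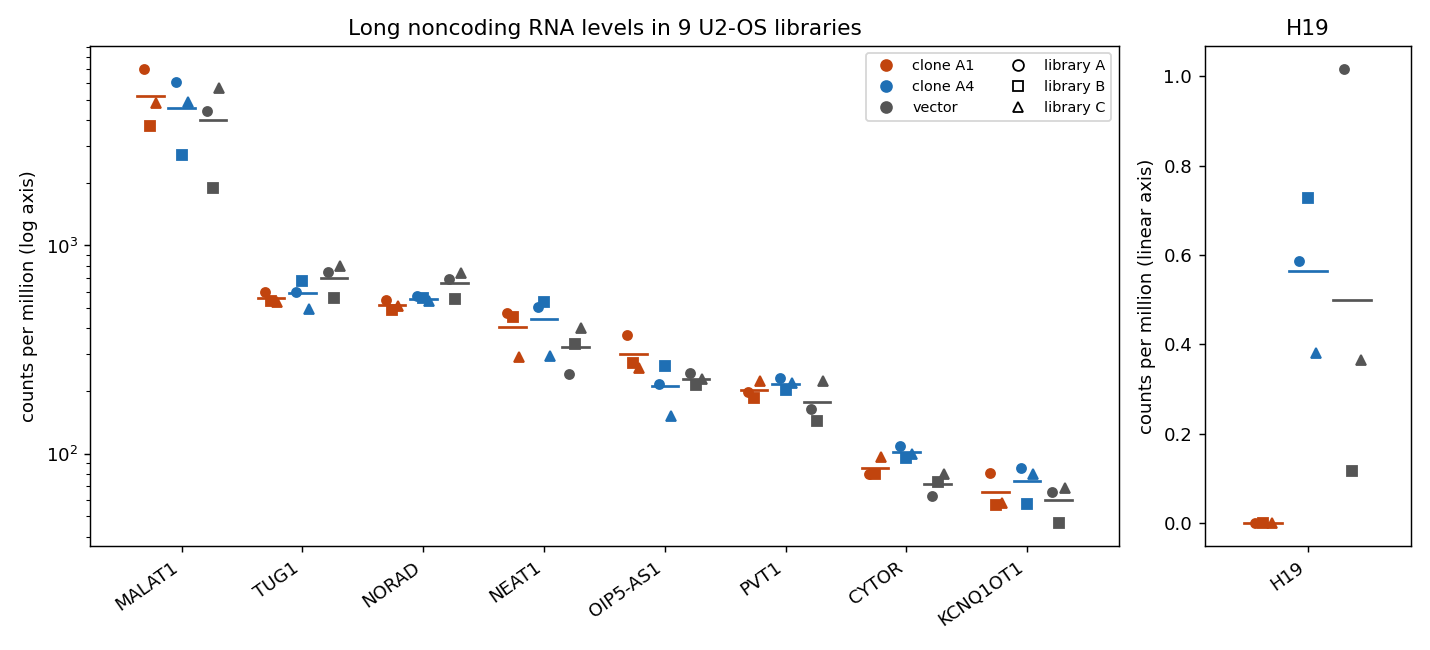
CPM (log axis on the left, linear for H19 on the right) of 9 long noncoding RNAs in each library, coloured by group and shaped by library letter, with the group mean as a line. MALAT1 has the highest level of the 9 RNAs and is lowest in library B of each group, CYTOR lies higher in all 6 NCBP2 libraries than in the vector libraries on this scale, but not in shares of gene counts or without mitochondrial genes, and H19 is at 0 in clone A1.

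In the comparison of clone A1 with vector, 0 of the 9 members that passed the filter on low counts were called by edgeR's quasi-likelihood test at an adjusted p under 0.05, where 0.0646% of the 21682 genes tested were called. At an unadjusted p under 0.05 there were 2 (NORAD and H19), against 7.51% of all genes tested. DESeq2 called 1 member (H19), and 240 genes in all. The libraries of the 2 groups did not overlap for 4 members, NORAD and H19 lower and OIP5-AS1 and CYTOR higher in clone A1, against 14.2% of all genes tested. In clone A4 against vector, edgeR called 0 of 9 (background 0.115%) and DESeq2 0 (167 genes in all). There 1 member (CYTOR) had an unadjusted p under 0.05, against 5.25% of all genes. CYTOR was also the 1 member whose libraries did not overlap there, against 12% of all genes. Between clone A4 and clone A1, edgeR called 0 of 9 (background 0.161%), with 2 (OIP5-AS1 and H19) at an unadjusted p under 0.05, against 6.63%. DESeq2 called 1 (H19) there, and 232 genes in all, and 1 (H19) did not overlap, against 13.6%. For both NCBP2 clones together against vector, edgeR called 0 of 9 (background 0.0184%) and DESeq2 0 (111 genes in all). At an unadjusted p under 0.05 were 2 (NORAD and CYTOR), against 5.71%, and 1 (CYTOR) did not overlap, against 3.72%. MEG3 was not tested, and H19 passed the filter through clone A4 and vector alone. The comparisons of clone A1 and clone A4 with vector share the vector libraries and are not independent.

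**Figure D2:**
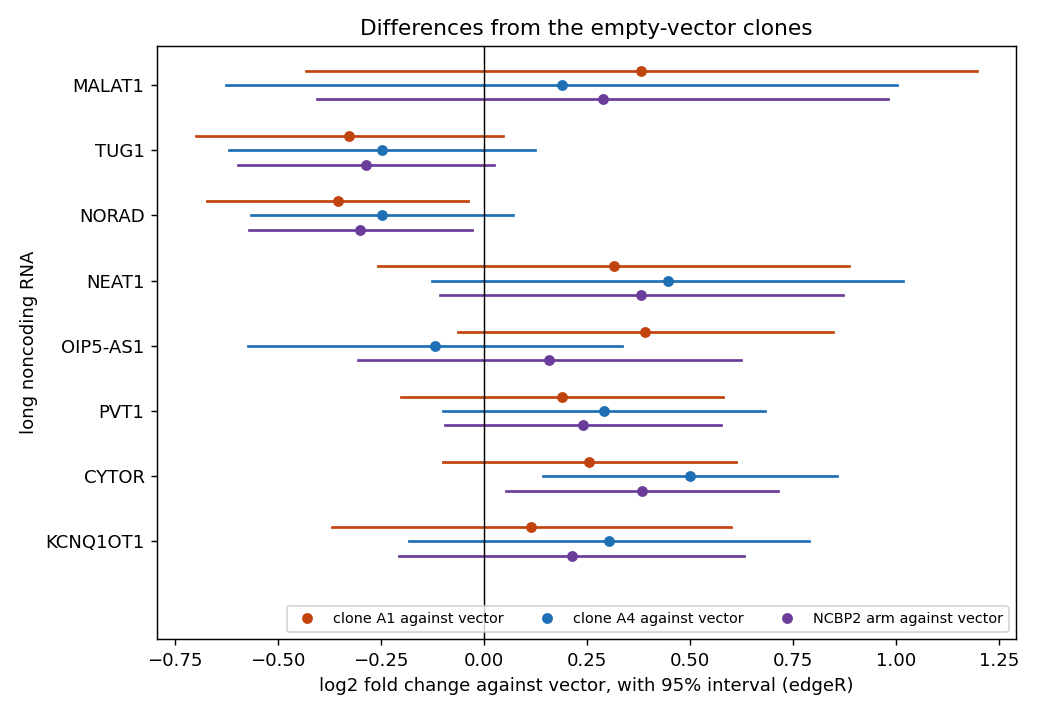
Log2 fold change against vector (x axis) with its 95% interval from edgeR for 8 long noncoding RNAs (y axis), for clone A1, clone A4 and both clones together. The intervals of NORAD in clone A1 (-0.67 to -0.04) and both clones together (-0.57 to -0.03), and of CYTOR in clone A4 (0.14 to 0.86) and both clones together (0.05 to 0.71), leave out 0, and no adjusted p passed 0.05. Intervals for both clones together count libraries of the same clone as separate samples and may be too narrow.

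MALAT1 (chr11:65497640-65508073, plus strand) was the most abundant member in every library, and the most variable of the 8 shown with higher counts. Values are given in the order of libraries A, B and C throughout. It stood at 7062, 3744 and 4808 CPM in libraries A, B and C of clone A1. In the same order, the values were 6076, 2717 and 4858 CPM in clone A4. The vector replicates, also in that order, had 4409, 1891 and 5683 CPM. In each group library B was the lowest, and those 3 libraries were the lowest of all 9. The groups overlapped in part. Library A of both NCBP2 clones lay above all vector libraries, and vector replicate B lay below all other libraries. The log2 fold change from vector (edgeR, with SE and 95% interval throughout) was 0.38 in clone A1 (SE 0.37, 95% interval -0.43 to 1.196, edgeR adjusted p = 0.856) and 0.19 in clone A4 (SE 0.37, -0.63 to 1.002, adjusted p = 1). The interval reached from 0.741 to 2.29 times the vector level in clone A1, so changes of either sign within that range are not excluded. MALAT1 alone held 8.72% (in vector replicate B) to 21.6% (in clone A1 replicate A) of all counts in long noncoding genes. Its spread between libraries of a group, an SD of 0.65 on the log2 scale, was larger than that of 95.5% of the 3550 genes at least as abundant as KCNQ1OT1, whose median was 0.23.

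NEAT1 (chr11:65422774-65445540, plus strand), the paraspeckle scaffold, lies upstream of MALAT1 on the same strand but did not follow it. NEAT1 was at 474, 454 and 293 CPM in clone A1. In clone A4 there were 508, 535 and 294 CPM, and in vector 242, 337 and 402 CPM. Library C was the lowest in both NCBP2 clones and the highest of the vector clones, and the groups overlapped. Its log2 fold change was 0.31 in clone A1 (SE 0.26, interval -0.26 to 0.89, edgeR adjusted p = 0.827) and 0.45 in clone A4 (SE 0.26, -0.13 to 1.02, adjusted p = 1). The ratio of MALAT1 to NEAT1 CPM ran from 5.08 (clone A4 replicate B) to 18.2 (vector replicate A). Over the 9 libraries the 2 RNAs had Pearson r = 0.08. The short and long isoforms of NEAT1 share their 5' part, and gene counts do not tell them apart.

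Among the 14 proteins listed as paraspeckle components, all tested, edgeR called 0 in any comparison, and the median log2 fold change was 0.04 in clone A1 and 0.07 in clone A4, beside -0.02 and 0.03 over all genes. The most abundant by CPM were HNRNPK, an RNA-binding protein (799, 753 and 808 CPM on average in clone A1, clone A4 and vector), and NONO, a core paraspeckle protein (546, 570 and 652 CPM). For the 9 nuclear speckle proteins and MALAT1 end factors, edgeR again called 0, with medians of 0.02 and -0.04. SRRM2, which builds speckles, was at 597, 640 and 638 CPM and HNRNPC at 606, 546 and 599 CPM.

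NORAD, which holds the Pumilio motifs shown above, had the smallest spread between libraries of a group among the tested members. It was at 547, 489 and 512 CPM in clone A1, whereas clone A4 had 569, 560 and 539 CPM and vector 692, 552 and 736 CPM. All 3 clone A1 libraries lay below the lowest vector library, while clone A4 overlapped vector replicate B only. The log2 fold change was -0.36 in clone A1 (SE 0.15, interval -0.67 to -0.04), with an unadjusted p = 0.0314 and an edgeR adjusted p = 0.603. In clone A4 it was -0.25 (SE 0.15, interval -0.56 to 0.07, edgeR adjusted p = 1), and for both clones together -0.30 (SE 0.13, -0.57 to -0.03, adjusted p = 0.808). As a share of long noncoding counts, NORAD was at 1.67% to 2.18% in the 6 NCBP2 libraries and 2.46% to 2.55% in the 3 vector libraries, without overlap. That share moves with MALAT1 as well, since MALAT1 is the largest part of its total. As a share of all gene counts, and in CPM without mitochondrial genes, clone A4 overlapped vector. How many other genes do not overlap as shares of long noncoding counts was not worked out. The within-group SD of NORAD, 0.14 on the log2 scale, was larger than that of only 10.4% of the 3550 genes compared.

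The proteins that bind NORAD and OIP5-AS1 were tested in full, 5 of 5, and edgeR called 0 in any comparison. Their median log2 fold change was -0.04 in clone A1 and -0.09 in clone A4. The 2 most abundant were KHDRBS1 (SAM68), at 372, 356 and 398 CPM in clone A1, clone A4 and vector, and PUM2, a Pumilio protein that NORAD binds, at 378, 337 and 302 CPM.

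OIP5-AS1 (chr15:41283958-41322392, plus strand), which carries the miR-7 site shown above, lay on different sides of vector in the 2 NCBP2 clones on average. It was at 371, 271 and 258 CPM in clone A1. In clone A4 there were 216, 264 and 152 CPM, and in vector 245, 214 and 228 CPM. All clone A1 libraries lay above all vector libraries, and clone A4 spread to both sides of them. The log2 fold change was 0.39 in clone A1 (SE 0.21, interval -0.06 to 0.85, edgeR adjusted p = 0.719) and -0.12 in clone A4 (SE 0.21, interval -0.57 to 0.33, adjusted p = 1). Between the clones it was -0.51 (clone A4 against clone A1, SE 0.21, interval -0.97 to -0.06), with an unadjusted p = 0.0308 and an edgeR adjusted p = 0.676. The gene overlaps OIP5 on the opposite strand, and the opposite-strand column held 5.26% to 9.67% of the reads at OIP5-AS1, against 5.51% to 6.42% over all genes. OIP5 averaged 25.4 ± 2.34 CPM in clone A1, 15.4 ± 0.021 in clone A4 and 13.7 ± 1.02 in vector (SD, n = 3 libraries each). Its log2 fold change was 0.89 in clone A1 (SE 0.19, edgeR adjusted p = 0.162) and 0.17 in clone A4 (SE 0.19, adjusted p = 1). Whether reads of one strand reach the count of the other was not tested.

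TUG1 (chr22:30969245-30979395, plus strand), a gene studied for gene regulation in the nucleus and retina, followed NORAD across the libraries. Its level was 595, 544 and 533 CPM in clone A1, whereas clone A4 had 598, 674 and 495 CPM and vector 745, 558 and 793 CPM. Vector replicate B was again the lowest vector library and overlapped both clones. The log2 fold change was -0.33 in clone A1 (SE 0.17, interval -0.70 to 0.05, edgeR adjusted p = 0.71) and -0.25 in clone A4 (SE 0.17, -0.62 to 0.12, adjusted p = 1).

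CYTOR (chr2:87454781-87636740, plus strand), a cytoplasmic RNA studied in tumour cells, was the 1 member whose CPM was higher in all 6 NCBP2 libraries than in all 3 vector libraries, by a margin that other scalings did not keep in clone A1. It was at 80.01, 80.3 and 96.5 CPM in clone A1. In clone A4 there were 109, 94.96 and 99.8 CPM, and in vector 62.7, 72.8 and 79.6 CPM. The gap to the highest vector library was under 1 CPM in clone A1 replicates A and B. With mitochondrial genes left out of the total, the lowest clone A1 library was at 86.05 and the highest vector library at 87.77 CPM. As percentages of unscaled gene counts these were 0.007782% and 0.007792%, and as shares of long noncoding counts 0.245% and 0.336%. On all of these scales clone A4 stayed above vector. The log2 fold change was 0.26 in clone A1 (SE 0.16, interval -0.10 to 0.61, edgeR adjusted p = 0.766). In clone A4 it was 0.50 (SE 0.16, interval 0.14 to 0.86), with an unadjusted p = 0.00982 and an edgeR adjusted p = 0.596. Both clones together gave 0.38 (SE 0.15, 0.05 to 0.71, adjusted p = 0.761). CYTOR has a near-identical copy on the same chromosome, MIR4435-2HG, and 45.0% of its windows of 75 bases were identical there. The counts leave out multimapped reads, so both genes are uncertain and are measured on their unique parts. MIR4435-2HG was at 131 ± 8.03, 173 ± 8.22 and 153 ± 2.29 CPM in clone A1, clone A4 and vector (SD, n = 3 libraries each), with log2 fold changes from vector of -0.22 and 0.18.

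PVT1 (plus strand of chromosome 8, at 127794526 to 128187101) hosts microRNAs and is often gained in tumours. It was at 199, 184 and 224 CPM in clone A1, whereas clone A4 had 230, 202 and 219 CPM and vector 165, 144 and 224 CPM. Vector replicate C reached the level of the NCBP2 clones and the other two vector libraries lay below all of them. Its log2 fold change was 0.19 in clone A1 (SE 0.18, interval -0.20 to 0.58, edgeR adjusted p = 0.852) and 0.29 in clone A4 (SE 0.18, interval -0.10 to 0.68, adjusted p = 1).

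KCNQ1OT1 (chr11:2597308-2700003, minus strand) is the imprinted antisense RNA of KCNQ1, known for silencing its neighbours in cis. It was at 80.9, 56.8 and 58.2 CPM in clone A1. In clone A4 there were 85.2, 57.6 and 80.2 CPM, and in vector 65.6, 46.4 and 68.7 CPM. The groups overlapped, and vector replicate B was the lowest library. The log2 fold change was 0.12 in clone A1 (SE 0.22, interval -0.37 to 0.60, edgeR adjusted p = 0.933) and 0.30 in clone A4 (SE 0.22, interval -0.18 to 0.79, adjusted p = 1). KCNQ1 itself, on the other strand, reached at most 0.63 CPM in any library and was not tested.

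H19 (chr11:1995166-2004552, minus strand), an imprinted RNA that is high in fetal tissue and hosts miR-675, was scarce and absent from the counts of clone A1. It had 0 counts in all 3 clone A1 libraries, 28, 32 and 17 counts in clone A4, and 47, 6 and 15 counts in vector. On the CPM scale, clone A4 had 0.59, 0.73 and 0.38 and vector 1.02, 0.12 and 0.37. The vector clones differed more among themselves than the clone A4 libraries did. Pooled over a group, clone A4 was at 0.565 CPM (exact Poisson 95% interval 0.446 to 0.706) and vector at 0.491 (0.381 to 0.623). These intervals cover counting error only. For clone A1, at 0 counts, the exact Poisson 95% interval reaches 0.0341 CPM. The ratios that follow use a smaller limit, 0.0277 CPM (3 counts over the group), which makes them larger. The pooled vector level was 17.7 times this limit and the pooled clone A4 level 20.4 times. These ratios leave out the counting error of the pooled levels and the spread between libraries. Vector replicate A gave 47 of the 68 vector counts, and without it the pooled vector level was 8.21 times the limit. edgeR gave an unadjusted p = 0.00126 against vector (adjusted p = 0.244) and 0.00107 against clone A4 (adjusted p = 0.235). The gene passed the filter on low counts through clone A4 and vector alone, which these p-values do not take into account. With DESeq2, and in edgeR with no filter on low counts, both differences passed the threshold, with adjusted p from 0.00288 to 0.729 over all alternatives of both comparisons. Clone A4 against vector gave a log2 fold change of 0.18 (SE 1.01, interval -2.07 to 2.42, edgeR adjusted p = 1).

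In bulk RNA, fewer cells with H19 and less H19 per cell cannot be told apart. In clone A1 alone, clone and NCBP2 overexpression cannot be told apart. The 2 mature microRNAs within H19, from RefSeq GRCh38.p14 on the minus strand (chr11:1996800-1996822 and chr11:1996768-1996787), are shown with their seeds (bases 2 to 8) in capitals, since they share the transcript that was missing in clone A1.
hsa-miR-675-5p: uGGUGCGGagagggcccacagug
hsa-miR-675-3p: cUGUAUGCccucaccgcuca
The 2 seeds differ, and the levels of these microRNAs were not analysed here.

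MEG3 (chr14:100779410-100861031, plus strand), an imprinted RNA and reported growth suppressor, had 0 counts on its strand in all 9 libraries. Over the counts of a group, this allows up to 0.0277 CPM in clone A1, 0.0220 in clone A4 and 0.0217 in vector. Its imprinted neighbour DLK1 was at 0 CPM and RTL1 at no more than 0.05 CPM in any library.

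Of the 11 other imprinted genes near H19, KCNQ1OT1 and MEG3, 5 passed the filter on low counts and edgeR called 0 in any comparison. All 5 had negative log2 fold changes in clone A1 (median -0.42, beside -0.02 over all genes), and 4 of 5 positive ones in clone A4 (median 0.30, beside 0.03). Their SEs in clone A1 were 0.37 to 0.62, with edgeR adjusted p of at least 0.666. The libraries of clone A1 were not uniform. In its replicate C, IGF2, SLC22A18 and TSSC4 lay above their vector means, and CDKN1C and PHLDA2 below. All 5 lie on chromosome 11, so none is from the MEG3 region. The 2 most abundant were CDKN1C, a cyclin-dependent kinase inhibitor, at 4.51 ± 1.42, 7.93 ± 2.005 and 7.93 ± 3.10 CPM in clone A1, clone A4 and vector, and IGF2, a growth factor next to H19, at 4.68 ± 1.86, 7.83 ± 2.46 and 6.29 ± 1.996 CPM (SD, n = 3 libraries each). The IGF2 mRNA-binding proteins, which also bind H19, were tested in full, 3 of 3, and edgeR called 0. IGF2BP2 was at 115, 114 and 95.3 CPM and IGF2BP1 at 8.60, 6.71 and 8.53 CPM in clone A1, clone A4 and vector. Of 20 other well-known long noncoding RNAs, 17 were tested and edgeR called 0, with a median log2 fold change of -0.10 in clone A1 and -0.26 in clone A4. The most abundant were FTX (159, 170 and 140 CPM) and MIR4435-2HG, given above. Over all 4670 annotated long noncoding genes tested, the medians were 0.01 and 0.11, and edgeR called 2 in clone A1 and 5 in clone A4, none of them a member.

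**Figure D3:**
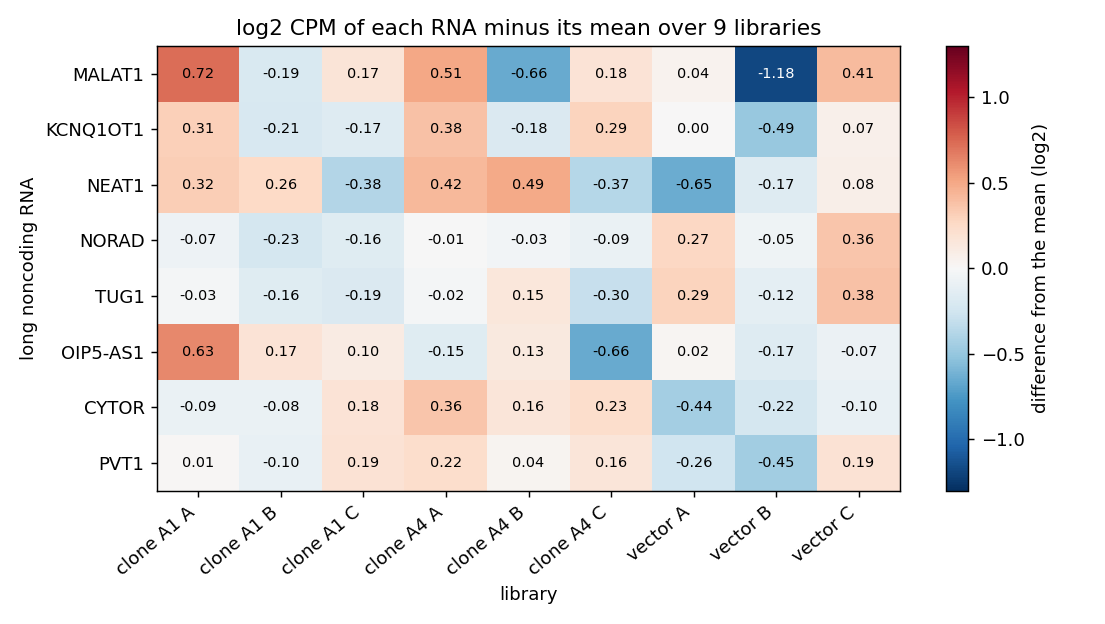
Log2 CPM of 8 long noncoding RNAs (rows) in 9 libraries (columns) minus each RNA's mean over the libraries. MALAT1 spans -1.18 (vector replicate B) to 0.72 (clone A1 replicate A), and the rows of NORAD and TUG1 are alike.

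Few pairs of members varied together, and the share of such pairs among other genes was not worked out. Over the 9 libraries, 2 of the 36 pairs of tested members had a correlation of log2 CPM with an adjusted p under 0.05 (exact two-sided permutation test, Benjamini-Hochberg over the 36 pairs). NORAD and TUG1 had Pearson r = 0.89 (exact p = 0.00204, adjusted p = 0.0367) and Spearman rho = 0.90 (exact p = 0.00203, adjusted p = 0.0365). Without the 2 libraries farthest from the NORAD median r was 0.53, and it was 0.84 for deviations from group means. MALAT1 and KCNQ1OT1 had r = 0.87 (exact p = 0.00139, adjusted p = 0.0367) and rho = 0.93 (exact p = 0.00075, adjusted p = 0.0270). Without the 2 libraries farthest from the MALAT1 median r was 0.76, and it was 0.96 for deviations from group means. Libraries of 1 clone share their cells, so these 9 libraries are not fully independent and the p-values are too small to that extent.

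MALAT1 and KCNQ1OT1 also followed a property of the library, the share of uniquely aligned reads assigned to no gene, a relation looked at after the levels were seen. For MALAT1 Pearson r was 0.91 (exact permutation p = 0.000568, adjusted p = 0.00255 over the 9 tested members) and Spearman rho 0.92 (exact p = 0.00131, adjusted p = 0.0118). For KCNQ1OT1 r was 0.93 (exact p = 0.000435, adjusted p = 0.00255) and rho 0.88 (exact p = 0.00308, adjusted p = 0.0138). Without the 2 libraries farthest from the median share (clone A1 replicate A, vector replicate B), r was 0.72 for MALAT1 and 0.88 for KCNQ1OT1. Within groups, for deviations from group means, r was 0.92 and 0.96, and by the same measure 0.76 for NORAD and 0.55 for PVT1. The other 7 tested members had r between -0.04 (H19) and 0.65 (PVT1), with adjusted p from 0.179 (exact permutation test). NEAT1 had r = 0.37. Among the 3550 genes at least as abundant as KCNQ1OT1, 4.197% had a higher r than MALAT1 and 2.48% a higher r than KCNQ1OT1. The part of this share in the spread of either RNA was not tested.

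**Figure D4:**
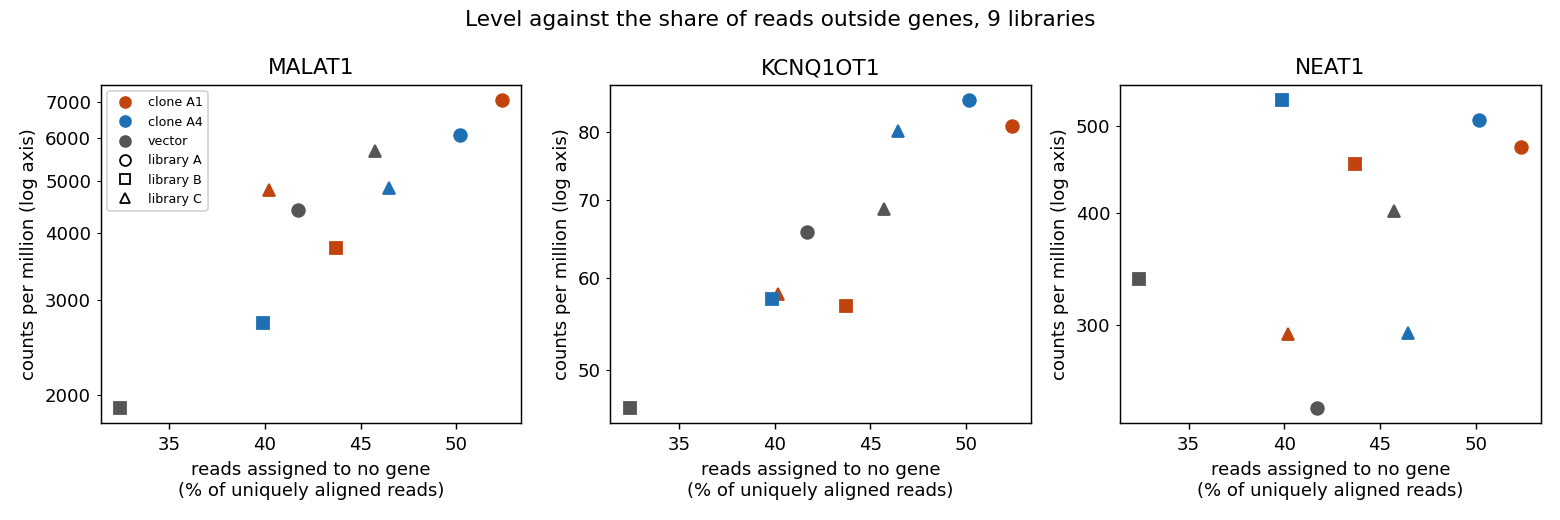
CPM (log axis) of MALAT1, KCNQ1OT1 and NEAT1 in 9 libraries against the share of uniquely aligned reads assigned to no gene (x axis, 32.4% to 52.4%). MALAT1 and KCNQ1OT1 rise with that share (r = 0.91 and 0.93), and NEAT1 has r = 0.37.

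The genes most like each member are named by a fixed rule, the highest Pearson r of log2 CPM over the 9 libraries among 13462 tested genes with a symbol, as a description. A highest value among so many genes over 9 libraries is high by choice. For MALAT1 they were OTUD6B-AS1 (r = 0.99) and NEMF (0.99), which were also the top 2 without clone A1 replicate A. KCNQ1OT1 was most like PLCB1 (0.99) and CAPS2 (0.98), again the same 2 over 8 libraries. For NEAT1 they were ZNF667 (0.93) and WHAMMP2 (0.93), for NORAD SOX9-AS1 (0.96) and ANK2 (0.96), and for TUG1 MAN1A1 (0.95) and CLCN3 (0.95). OIP5-AS1 was most like ARIH1 (0.98) and NTAQ1 (0.97), CYTOR most like MYOSLID (0.95) and CCNB3 (0.94), PVT1 most like DGKG (0.94) and MAP1B (0.93), and H19 most like ARHGAP24 (0.96) and EDA2R (0.94). Over the 8 libraries without clone A1 replicate A, OIP5-AS1, CYTOR and PVT1 each had another pair of genes at the top.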

How the data were processed

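RNA of 9 U2-OS libraries was measured. The authors deposited unnormalized whole-number read counts for each gene. The submitters' processing notes name STAR 2.7.1a and GRCh38, and the annotation is not given in the sources used here. Each table has 1 column of counts without regard to strand and 1 for each strand, as read from the values. The column holding most stranded counts was used, and the opposite strand held 5.51% to 6.42%. The 4 lines that name no gene, 44.5% to 63.6% of reads, were left out. Symbols, classes and coordinates came from GENCODE release 44, which matched 60295 of 60609 identifiers. All 10 members matched, 2 with the same version, so the gene models used for counting may differ.

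Groups came from the titles. Comparisons used the quasi-likelihood test of edgeR (version 4.0.16, limma 3.58.1, R 4.3.3; robust, filterByExpr, TMM factors of 0.973 to 1.07) on all 9 libraries, with Benjamini-Hochberg adjustment over 21682 genes, and edgeR's log2 CPM with a prior count of 2 where values were centred or correlated. With 9 libraries the common biological coefficient of variation was 0.411, a value over all genes tested. The members' own within-group SDs ran from 0.14 (NORAD) to 0.82 (H19) on the log2 scale. The test was run on simulated data with planted changes larger than those of the members other than H19. The genes changed there were more abundant than H19. That run therefore does not show how well small changes, or changes in scarce genes, are found. DESeq2 1.42.0, other scalings, no filter, unstranded counts, a replicate block, leaving out each library and counts summed per clone were alternatives. Every member was named with its values, and from each gene list the 2 genes with the highest mean CPM unless any was called. The members and lists were chosen with earlier results of these data known. MIR4435-2HG was counted both as a listed gene and as the copy of CYTOR.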

Additional observations from a re-analysis of the deposited data

Results flagged for a closer look

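H19 libraries of the 2 NCBP2 clones lay on opposite sides of the vector mean. All 3 clone A1 libraries lay below the vector mean and all 3 clone A4 libraries above it, on the log2 scale of CPM with a prior count of 2, and the clone means were 3.66 apart. The groups stand at 0 counts in clone A1 and at 17 to 32 counts per library in clone A4, so the size depends on the prior count. On the plain CPM scale clone A4 replicate C (0.380) was below the vector mean (0.500), and clone A4 against vector gave an edgeR log2 fold change of 0.18 (SE 1.01, adjusted p = 1). The test of this difference is that of clone A4 against clone A1, with edgeR adjusted p = 0.235.

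MEG3 had counts on the strand opposite to the gene, a column that the comparisons do not use. There were 16 such counts in clone A4 replicate C and 2 in vector replicate C, with 0 on the gene's own strand.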

How the results depend on the processing

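Of the 9 tested members in 4 comparisons, 0 were called under every alternative except DESeq2 and edgeR with no filter on low counts, each of which called 1 member (H19) in clone A1 against vector and in clone A4 against clone A1. H19 was not tested in clone A1 with only the 6 libraries compared, where it did not give a value. The number of genes called moved more. It was 14 in clone A1 against vector, 25 in clone A4 against vector, 35 between the clones and 4 for both clones together. With no filter these were 312, 163, 231 and 20, and with DESeq2 240, 167, 232 and 111. Only the 6 libraries compared gave 7 in clone A1, and counts summed per clone gave 0 for both clones together. Leaving out 1 library gave 3 to 14, 7 to 41, 10 to 56 and 1 to 8. The cause was not tested. A replicate block by library letter gave 38, 53, 51 and 13 genes and called 0 members in each comparison. Libraries of the same letter in different groups had correlations of deviations from group means of -0.10 to 0.18, with 6 of 9 pairs above 0.1. Libraries of different letters had -0.27 to 0.22. The meaning of the letters is not stated, and the main fit did not take them as pairs. Whether they pair the libraries was not tested. Not every library correlated best with its own letter.

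No member's sign turned under an alternative other than leaving out 1 library. When 1 library was left out, the log2 fold change ran from -0.15 (without vector replicate B) to 0.51 for MALAT1 in clone A4, from -0.0508 (without vector replicate B) to 0.62 for MALAT1 in both clones, and from -0.47 to 0.10 (without clone A1 replicate A) for MALAT1 between the clones. It ran from -0.0623 (without clone A1 replicate A) to 0.21 for KCNQ1OT1 in clone A1, and from -0.33 to 0.0522 (without clone A4 replicate C) for OIP5-AS1 in clone A4. For NEAT1 between the clones it ran from -0.0551 (without clone A1 replicate C) to 0.34, and for TUG1 from -0.0398 (without clone A4 replicate B) to 0.17. For H19 it ran from -0.30 (without vector replicate B) to 1.22 in clone A4 and from -1.32 to 0.24 (without vector replicate A) in both clones. NORAD stayed negative in both comparisons with vector, and CYTOR positive, whichever library was left out. Depth limits H19 and MEG3.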
